A study of Mus musculus with 4 samples.

Results

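The regions described here are the p63 peaks that lie far from acetylated chromatin in mouse salivary gland epithelial progenitor cells: peaks of the p63 list whose nearest H3K27ac peak is 10000 bases or more away, counted from edge to edge. Of 4130 p63 peaks, 325 met this rule (percent of the list 7.87, Wilson 95% interval 7.09 to 8.73%). They were chosen by their measured distance to H3K27ac, so distances and the lengths of H3K27ac-free stretches are given below as a description and carry no test. Of the 325, 16 lie in dense windows on chromosome 9 (chr9:3000014-3035955, first to last peak) and chromosome 2 (chr2:98502406-98507486), which may be pile-ups of reads from repeated sequence, and they are described apart. The remaining 309 are called the far p63 peaks (percent of the 4114 p63 peaks outside the windows 7.51).

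Chromatin was immunoprecipitated and sequenced (ChIP-seq) from primary cells labelled as epithelial progenitors, taken from salivary glands of adult mice that were 12 weeks old and wild type for p63. It had 4 libraries, 1 per group: a ChIP with the 4A4 mouse monoclonal antibody to p63 with its own input, and a ChIP with an antibody to H3K27ac with its own input. All 4 groups share genotype, age and tissue, and nothing in the labels names animals, pools or passages. The library titles differ, with PSECS for p63 and pSG for H3K27ac, so a shared cell preparation is not assumed. The data are 2 lists of peak positions on the mm9 mouse genome, with no height, score or read number, so depth is unknown. With 1 library per group, no peak has a replicate, and intervals below cover counting error only. Tests over regions were not made, because peaks of 1 library are not replicates.

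The transcription factor p63, a relative of p53, is required for stratified and glandular epithelia and marks their basal and progenitor cells. Acetylation of lysine 27 of histone H3 is laid down by the acetyltransferases p300 and CBP and marks promoters and enhancers in use. In keratinocytes p63 is known to bind DNA that is wrapped in nucleosomes as well as open enhancers, so p63 sites without the mark are known from other epithelial cells. Depth limits the reading here: H3K27ac below the calling threshold would leave no entry in the list.

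Most far p63 peaks lay a little past the limit, and a small tail lay deep inside long H3K27ac-free stretches. Outside the dense windows the distance to the nearest H3K27ac peak ran from 10.046 to 180.816 kb, with a median of 16.5 kb and quartiles of 12.5 and 22.5 kb. In all, 209 lay 10 to under 20 kb away, 89 lay 20 to under 50 kb away and 11 lay 50 kb or more away. The number depends on which H3K27ac peaks count: against those wider than 200 bases alone, 855 p63 peaks were far. The nearest peaks on either side of the limit were close together. The 5 p63 peaks just outside the group lay 9702, 9711, 9782, 9836 and 9957 bases from H3K27ac. The 5 just inside lay 10046 (chr9:94508314-94508552), 10078 (chr1:14151554-14151673), 10131 (chr1:143193605-143193724), 10148 (chr10:62356264-62356516) and 10196 bases away (chr3:9573758-9573988).

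The stretch without H3K27ac around a far p63 peak was usually much longer than the rule required. For the 308 far peaks with H3K27ac on both sides, it had a median length of 50.9 kb (quartiles 36.6 and 79.5 kb), and it ran from 21.494 to 474.33 kb. All 33733 stretches long enough to hold a far peak had a median of 35.0 kb, and a longer stretch offers more room. The H3K27ac peak on the farther side was at a median of 33.0 kb. Both flanking peaks lay under 20 kb away for 63 far peaks, and both lay 20 kb or more away for 99. For 95 far peaks the farther flank was 50 kb or more away. Such counts were not made for other positions in these stretches, so they are a description only. In the plot of the distances on both sides, the nearer side is always on the x axis. Points therefore cannot fall below the line of equal distance, and nothing is read from their place above it.

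**Figure D1:**
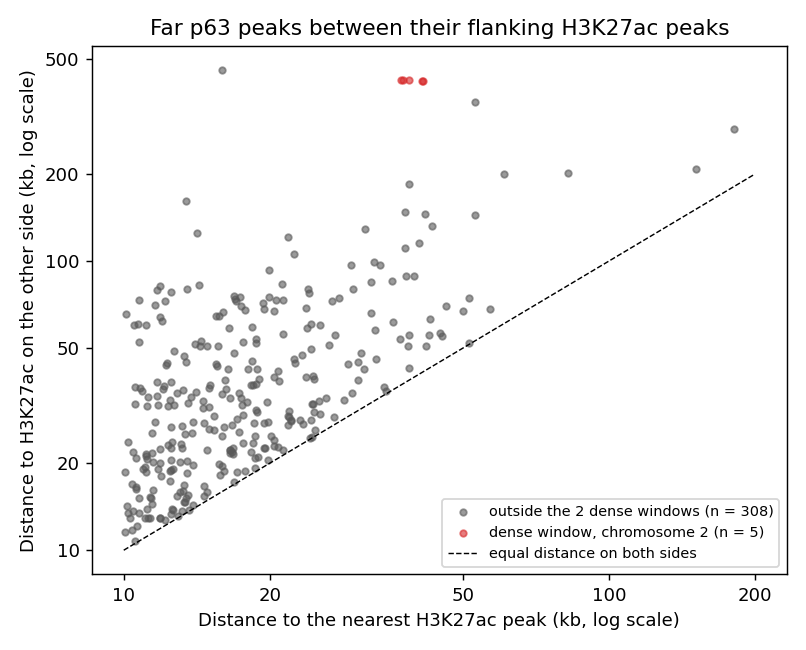
Distance from each far p63 peak to the nearest H3K27ac peak (x axis, kb, log scale) against the distance to H3K27ac on the other side (y axis, kb, log scale). Grey points are the 308 peaks outside the dense windows, red points the 5 peaks of the dense window on chromosome 2, and the dashed line marks equal distances; the grey points crowd between 10 and 20 kb on the x axis, and the red points lie between 419 and 424 kb on the y axis.

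Most far p63 peaks were the only far peak of their stretch. The 308 peaks occupied 302 separate H3K27ac-free stretches, of which 296 held 1 far peak and 6 held 2. The list had 33733 stretches long enough to hold a far peak, so 0.895% of them held one. By length, a far peak was present in 0.318% (Wilson 95% interval 0.234 to 0.431%) of the 12895 stretches of 20 to under 30 kb and in 0.945% of the 11008 of 30 to under 50 kb. It was present in 1.67% (interval 1.39 to 2.0%) of the 7012 stretches of 50 to under 100 kb, in 1.47% of the 2245 of 100 to under 200 kb and in 1.22% (interval 0.593 to 2.50%) of the 573 longer ones. Longer stretches offer more room. Per Mb of sequence at least 10 kb from H3K27ac, the number went down with length: 0.711 far peaks per Mb in the stretches of 20 to under 30 kb, 0.531, 0.356 and 0.129 in the next classes, and 0.0325 (exact Poisson 95% interval 0.0130 to 0.0669) in those of 200 kb or more. Whether reads can be placed equally well in stretches of each length was not tested.

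Counted over all sequence between H3K27ac peaks, p63 was sparser with each step away from the mark, and this went on inside the far zone. In the 155.579 Mb within 0.5 kb of an H3K27ac edge there were 11.2 p63 midpoints per Mb (Poisson 95% interval 10.6 to 11.7). At 1 to 2 kb there were 1.23 per Mb, and at 5 to 10 kb 0.646 (interval 0.574 to 0.723). The far zone held 309 midpoints in 1067 Mb, which is 42.4% of all sequence between H3K27ac peaks. Its density was 0.476 per Mb (interval 0.414 to 0.545) at 10 to 20 kb, 0.236 (0.190 to 0.290) at 20 to 50 kb, 0.0602 (0.0260 to 0.119) at 50 to 100 kb and 0.0178 (0.00215 to 0.0642) beyond. The largest difference between neighbouring zones was next to H3K27ac, from 11.2 to 2.14 per Mb at 0.5 kb, and the values at 5 to 10 and 10 to 20 kb, on either side of the limit, were closer. These values use midpoints, so the peaks in each zone are not exactly those sorted by edge distance. How well reads can be placed at each distance was not tested.

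**Figure D2:**
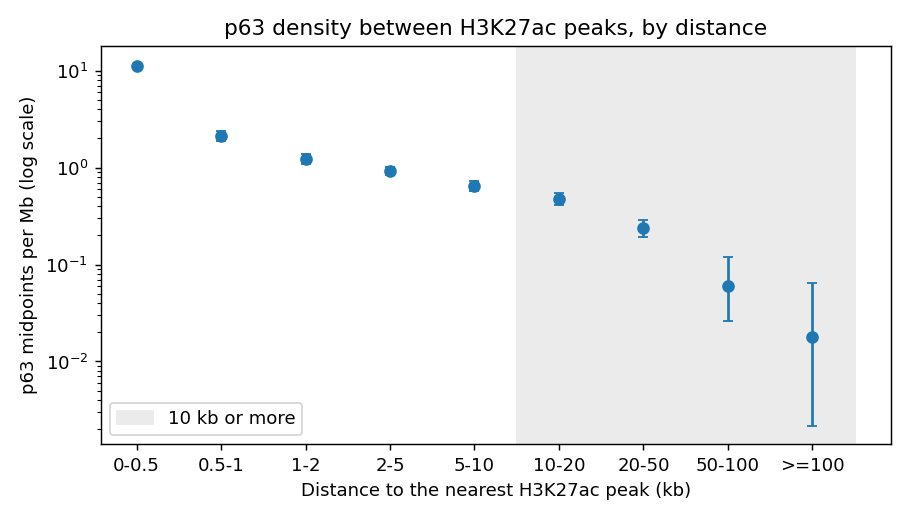
p63 midpoints per Mb (y axis, log scale) in sequence at a given distance from the nearest H3K27ac peak (x axis, kb), with exact Poisson 95% intervals as bars and the dense windows left out. The shaded zones hold the far peaks; the density goes from 11.2 per Mb next to H3K27ac to 0.476 at 10 to 20 kb and 0.0178 at 100 kb or more.

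The same order was present within the long stretches alone. Stretches long enough to hold a far peak contained 832 p63 midpoints in 1742 Mb. In the outermost 1 kb next to their flanking H3K27ac peaks there were 166 midpoints, or 2.46 per Mb (Poisson 95% interval 2.1 to 2.86). At 5 to 10 kb from the edge there were 0.525 per Mb (interval 0.450 to 0.608), and at 10 kb or more 0.290 (interval 0.258 to 0.324). By distance, the median widths were 184 bases in the outermost 1 kb, 156 at 1 to 2 kb, 168 at 2 to 5 kb, 164 at 5 to 10 kb and 170 at 10 kb or more, with no steady order past the first zone.

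Width is the only property of each p63 peak that the list gives beside its position. In width, far peaks were like the p63 peaks 1 to 10 kb from H3K27ac and narrower than those that share a base with it. A peak caller draws a wider peak where more reads pile up over more bases, so width follows both the strength and the spread of a signal. The median far peak was 170 bases wide (order-statistic 95% interval 161 to 175), the quartiles were 137 and 202 bases, and the narrowest and widest had 120 and 353 bases. The 981 peaks at 1 to under 10 kb had a median of 168 bases (interval 163 to 171), the 1385 at under 1 kb without a shared base 178 (174 to 182) and the 1439 that shared a base with H3K27ac 198 (195 to 202). Within the far group the median was 172 bases at 10 to under 20 kb, 169 at 20 to under 50 kb and 155 (interval 123 to 215) for the 11 peaks at 50 kb or more, with overlapping intervals. Across the 309 far peaks, Spearman's rho between width and distance was -0.06; both measures use the edges of the same p63 peaks.

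The far group held few wide peaks but no large excess of the narrowest. Widths of 221 bases or more, at or above the upper quartile of the list, were present in 44 far peaks (14.2%, Wilson 95% interval 10.8 to 18.6%), against 25.3 percent of all p63 peaks outside the windows. The class at 1 to under 10 kb had 16.7% (interval 14.5 to 19.2%), so the low share is not particular to the far peaks. The smallest width in the list, 120 bases, was present in 32 far peaks (10.4%, interval 7.43 to 14.2%), against 8.92 percent of all and 12.2% at 1 to under 10 kb. The plot of width by distance shows the same levels.

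**Figure D3:**
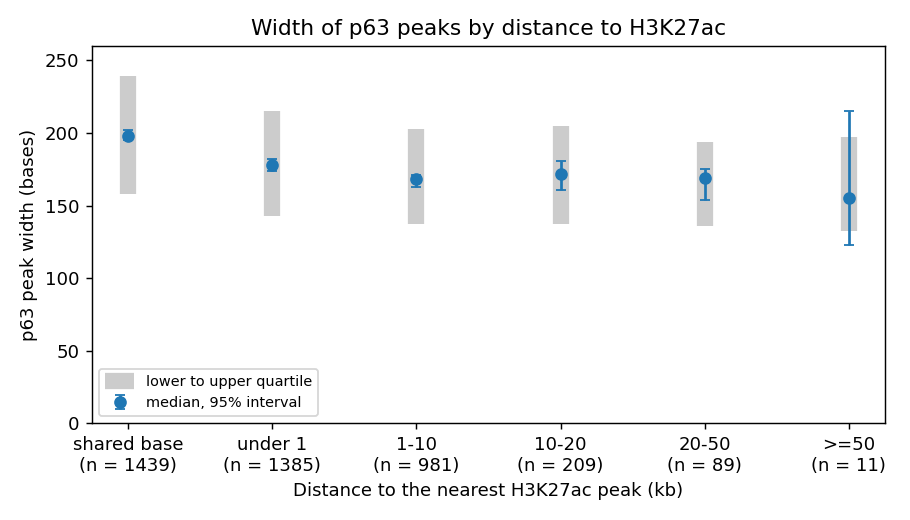
Width of p63 peaks in bases (y axis) by distance to the nearest H3K27ac peak (x axis, kb), dense windows left out. Points are medians with order-statistic 95% intervals and grey bars run between the quartiles; the median is 198 bases for peaks that share a base with H3K27ac and 172, 169 and 155 bases in the far classes.

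The 10 widest far peaks were scattered over 8 chromosomes, and only 1 of them was also among the most remote. The widest, chr6:7891796-7892148 (353 bases), lay 24.1 kb from H3K27ac. It was followed by chr9:35112782-35113118 (337 bases, 27.1 kb) and chr1:35719827-35720151 (325 bases, 12.5 kb). The others, of 279 to 298 bases, lay at chr8:94075305-94075602, chr1:63674786-63675079, chr5:119580227-119580511, chr1:103689812-103690094, chr16:40836387-40836668, chr14:75653783-75654063 and chr10:44101279-44101557. Of these the peak at chr1:103689812-103690094 (283 bases) stood out, with its nearest H3K27ac peak 151 kb away and the nearest p63 peak 1621 kb away.

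The 10 most remote far peaks had no H3K27ac peak within 50 kb on either side, and 3 of them had none within 100 kb. The peak at chr13:50855652-50855784 (133 bases) was the most remote, 181 kb from H3K27ac on one side and 287 kb on the other. The peak at chr1:103689812-103690094 was next, in a stretch of 359 kb. The third, chr12:3109930-3110137 (208 bases), lay 110 kb before the first H3K27ac peak of its chromosome, and it is the only far peak outside the windows with H3K27ac on 1 side only. Its place near the start of the chromosome resembles that of the dense window on chromosome 9; whether it is a pile-up of reads was not tested. The other 7 lay 51.5 to 82.5 kb from H3K27ac, at chr11:15437886-15438038, chr5:110225397-110225611, chr3:73239230-73239349, chr10:109677828-109677950, chr8:19430491-19430677, chr5:90541207-90541390 and chr2:174679429-174679560. Among the 10, widths ran from 120 to 283 bases, and the nearest p63 peak was 90.7 to 2503 kb away.

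Remoteness and the length of the stretch did not always go together. The longest stretch with a far peak, 474 kb, held chr6:69271407-69271578 (172 bases), which lay only 15.9 kb from one of its ends. The next were those of the peaks on chromosome 13 (468 kb), chromosome 8 (407 kb), chromosome 1 (359 kb), chromosome 11 (284 kb) and chromosome 5 at 110 Mb (261 kb) named above. Below them came chr16:74611738-74611910 in a stretch of 224 kb, the chromosome 10 peak named above in one of 197 kb, chr5:87285486-87285617 in one of 188 kb and chr13:118261577-118261767 in one of 186 kb. These last 3 newly named peaks lay 38.0 to 41.8 kb from the nearer end.

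Most far peaks had some H3K27ac peak within 100 kb, with peaks of any width counted. Of the H3K27ac list, 54.7% of peaks were under 200 bases wide. Within 50 kb of a far peak there was a median of 4 H3K27ac peaks (quartiles 2 and 8, highest 23), and 11 far peaks had none. Within 100 kb the median was 11 (quartiles 6 and 18, highest 60), and 3 had none. These counts were not made for the other p63 peaks, so they do not show whether such surroundings are ordinary or poor in H3K27ac. The H3K27ac peak nearest to a far peak was a little narrower than a typical one of the list. Its median was 181 bases (order-statistic 95% interval 172 to 187). Over all H3K27ac peaks the median was 191, and for the p63 peaks 1 to under 10 kb from H3K27ac it was 188. The median was 235 bases for all p63 peaks outside the windows and 447 for those that share a base with H3K27ac. It had the smallest width of the H3K27ac list, 150 bases, for 88 far peaks (28.5%, Wilson 95% interval 23.7 to 33.8%), against 21.8% at 1 to under 10 kb, 12.5% of all p63 peaks outside the windows and 21.7% of the H3K27ac list. It had 500 bases or more for 5 (1.62%), against 3.06%, 20.4% and 7.42% in the same order.

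Flanks of the same width were found at long H3K27ac-free stretches in general. The H3K27ac peaks at both ends of the 302 stretches with a far peak had a median of 174 bases in width, and those at the ends of all 33733 long stretches had 173, with quartiles of 150 and 215 in both cases. The share of ends with the smallest width was 31.3% and 30.3%, and the share of 500 bases or more was 1.49% (9 of 604 ends) and 1.72%. The stretches themselves were longer where they held a far peak, with medians of 50.9 kb and 35.0 kb, and a longer stretch gives a p63 peak more room.

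Distances to wide H3K27ac peaks alone are given as a description, since the rule, which asks for distance from any H3K27ac peak, fixes their direction. From H3K27ac peaks of 500 bases or more, of which the list has 13631, the far peaks lay at a median of 183 kb and all p63 peaks outside the windows at 22.7 kb. From those of 1000 bases or more the medians were 523 and 118 kb. Of the far peaks, 253 (81.9%) had no H3K27ac peak of 500 bases or more within 50 kb, against 37.5% of all p63 peaks. No difference is read from these values.

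Outside the dense windows, far p63 peaks were seldom near another p63 peak. The rule bears on this measure, since no H3K27ac lies under 10 kb from a far peak. The p63 peaks at H3K27ac can therefore hardly be neighbours within 10 kb. Of all p63 peaks outside the windows, 68.6 percent lie under 1 kb from H3K27ac. The shares are given as a description. Of the 309, 10 (3.24%, Wilson 95% interval 1.77 to 5.85%) had another p63 peak within 10 kb, against 14.3 percent of all p63 peaks outside the windows. The share was 7.14% (interval 5.69 to 8.92%) at 1 to under 10 kb from H3K27ac, 13.9% at under 1 kb without a shared base and 21.9% (interval 19.8 to 24.1%) for peaks that share a base with H3K27ac. Within 50 kb the share was 16.2% (interval 12.5 to 20.7%) for the far peaks, against 39.1 percent of all. The class at 1 to under 10 kb had 28.8% (interval 26.1 to 31.8%), so a low share is not particular to the far peaks. The nearest p63 peak was at a median of 252 kb (quartiles 90.7 and 608 kb) for the far peaks. The median was 123 kb for the class at 1 to under 10 kb and 77.3 kb for all other p63 peaks together. For 42 far peaks (13.6%) no p63 peak lay within 1000 kb, against 3.55% of the others.

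The nearest p63 peak, at whatever distance, was most often one under 1 kb from H3K27ac or sharing a base with it, as are most p63 peaks. It lay under 1 kb from H3K27ac for 179 far peaks (57.9%), against 68.6 percent of all p63 peaks outside the windows. It was itself far for 40 (12.9%), against 7.51 percent of all. The rule bears on both shares, since each search starts inside a stretch without H3K27ac, and no difference is read from them. The 10 far peaks with a neighbour within 10 kb formed 6 pairs, of which 4 joined 2 far peaks. The tightest pair was chr7:143635937-143636116 and chr7:143638902-143639134, with 2785 bases between the peaks and H3K27ac 21.8 and 18.8 kb away. The other pairs of 2 far peaks were chr13:59066128-59066293 with chr13:59072782-59072933 (6488 bases apart), chr12:57420061-57420278 with chr12:57426968-57427136 (6689 bases apart) and chr2:16762994-16763198 with chr2:16771390-16771590 (8191 bases apart). In the remaining 2 pairs a far peak stood beside a p63 peak closer to H3K27ac. At chr1:63674786-63675079 the partner, 6114 bases away, lay 7260 bases from H3K27ac. At chr12:92892954-92893173 the partner, 8131 bases away, was a wide peak of 344 bases that lay 3876 bases from H3K27ac.

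Across the 19 autosomes, the share of p63 peaks that were far was 7.71% ± 2.14 (mean and SD across autosomes), from 4.36% on chromosome 4 (12 of 275; Wilson 95% interval 2.51 to 7.47%) to 11.2% on chromosome 1 (34 of 303; interval 8.14 to 15.3%). These 2 intervals do not overlap, and the chromosomes were picked as the extremes. Spearman's rho across the 19 autosomes was -0.58 between this share and the number of H3K27ac peaks per Mb, and 0.04 between the share and the part of the chromosome that lies 10 kb or more from H3K27ac. The share depends on the density of H3K27ac through the rule itself. Far peaks per Mb of sequence 10 kb or more from H3K27ac gave a rho of 0.18 with the number of H3K27ac peaks per Mb, the opposite sign. The peaks of a chromosome come from the same 2 libraries, so these values describe the lists only.

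Chromosome X had the most sequence far from H3K27ac and almost no far p63 peaks. There, 101.6 Mb (63% of the span of its peaks) lay 10 kb or more from H3K27ac within stretches between H3K27ac peaks, against 40.1% of the autosomal span. It held 2 far p63 peaks (0.647% of the 309, against 1.24 percent of all p63 peaks outside the windows), chrX:49530067-49530285 (219 bases, 11.7 kb from H3K27ac) and chrX:127520167-127520287 (121 bases, 11.6 kb). That is 0.0197 per Mb of this far sequence (Poisson 95% interval 0.00238 to 0.0711), against 0.194 on the lowest autosome and 0.318 per Mb on the autosomes together. The autosomes together thus had 16.2 times the density of X. For all p63 peaks per Mb of span the same ratio was 5.34 (1.69 on autosomes and 0.316 on X). As a share of the p63 peaks on X, the far ones made up 3.92% (2 of 51; Wilson 95% interval 1.08 to 13.2%), an interval that holds the autosomal 7.56%. The labels give no sex, so the number of X chromosomes per cell is unknown, and its part in these values was not tested. How well reads can be placed in the far sequence of X and of the autosomes was not tested either.

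**Figure D4:**
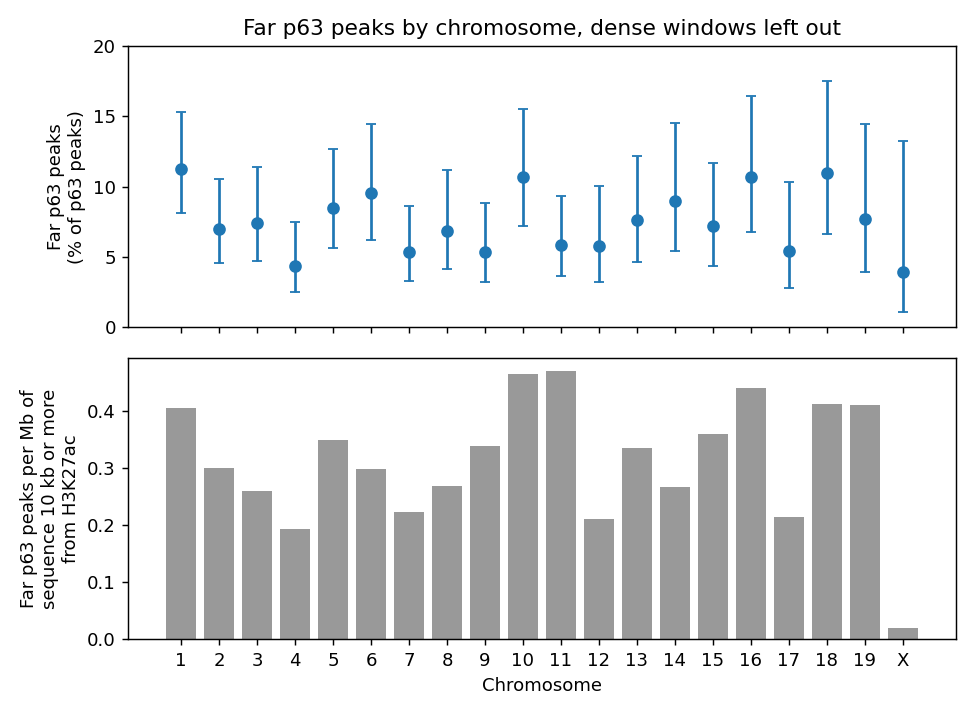
Far p63 peaks by chromosome (x axis), dense windows left out: upper panel, as a percent of the p63 peaks of the chromosome with Wilson 95% intervals; lower panel, per Mb of sequence that lies 10 kb or more from H3K27ac. Chromosome X is at 3.92% in the upper panel and at 0.0197 per Mb in the lower one, where the lowest autosome has 0.194.

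The 16 far peaks of the dense windows were set apart beforehand as possible pile-ups, and their close spacing is given as a description. On chromosome 9, 11 p63 peaks stood between positions 3000014 and 3035955, with 155 to 16942 bases between neighbours (median 1746) and widths of 121 to 254 bases (median 193). The first 2 stood apart from the other 9 by the widest of these spaces. All 11 lay before the first H3K27ac peak of the chromosome, chr9:3077068-3077267 (200 bases), at distances of 41.1 to 76.8 kb, and the second H3K27ac peak came another 230 kb later. The next p63 peak was 3.34 Mb away.

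On chromosome 2, 5 p63 peaks stood within 5.08 kb, with 99 to 2267 bases between neighbours. They were chr2:98502406-98502645 (240 bases), chr2:98502749-98503112 (364 bases), chr2:98503912-98504103 (192 bases), chr2:98506371-98506529 (159 bases) and chr2:98506629-98507486 (858 bases). The last is the widest of the whole p63 list, whereas the widest far peak outside the windows had 353 bases. They lay 37.2 to 41.4 kb from the nearest H3K27ac peak, one of 150 bases, in a stretch of 461 kb without H3K27ac that only 2 of the stretches with other far peaks exceeded. The nearest p63 peak outside this window was 2.82 Mb away. All 16 peaks of the windows had a p63 neighbour within 10 kb, against 10 of the 309 others, and counted together the share with a neighbour was 8%. No difference is read from this, since the windows were set apart as dense. Whether reads of repeated sequence made these peaks was not tested.

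**Figure D5:**
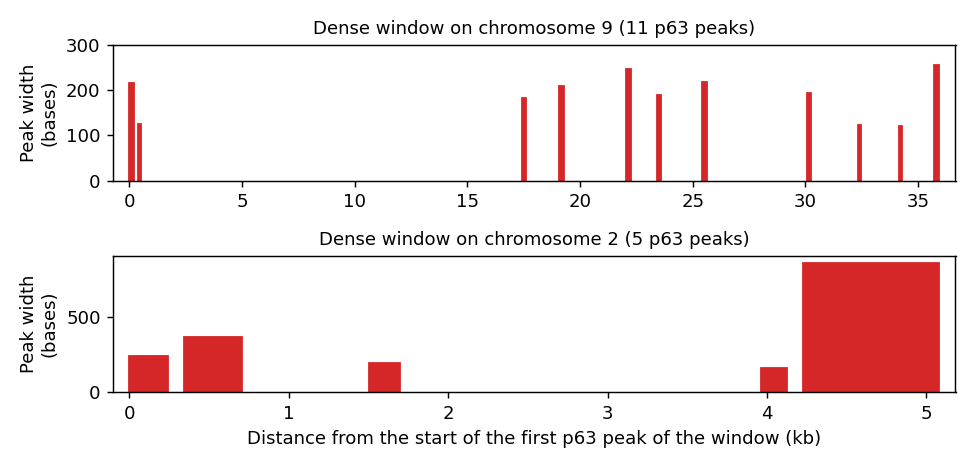
p63 peaks of the dense windows on chromosome 9 (upper panel, 11 peaks) and chromosome 2 (lower panel, 5 peaks). The x axis is the distance in kb from the start of the first p63 peak of the window, each bar spans its peak to scale and its height is the peak width in bases; the last peak on chromosome 2, of 858 bases, is the widest of the list.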

How the data were processed

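The data were 2 deposited peak lists with 3 columns (chromosome, start, end), each of 1 ChIP library set against its own input; the deposited values are positions, with no other unit. Per the submitters' processing notes, the authors' software included Bowtie 1.1.1 and MACS2 2.1.0 on the mm9 build. The settings used, the threshold for a peak and any removal of duplicates or problem regions: not given in the sources used. On chromosome 7, 1072 H3K27ac peaks and 33 p63 peaks have coordinates beyond the last gene in the GRCm38 table, so no coordinates, genes or sequences of that table were joined to the peaks, and motifs and gene starts were not analysed here.

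Distance is the number of bases between 2 peaks, with 0 for peaks that touch or share a base. Starts are printed counted from 1. Shares carry Wilson, densities exact Poisson and medians order-statistic 95% intervals, with peaks taken as independent. The distance search was tested on simulated data. The members, classes and measures were chosen with earlier results of these lists known. Regions were named by rule: the 10 farthest, the 10 widest, the 10 in the longest stretches, pairs within 10 kb, those on X, and 5 on each side of the limit. Analyses ran in Python 3.11.15 with scipy 1.17.1, numpy 2.4.6 and pandas 2.3.3, and figures were drawn with matplotlib 3.10.9.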

Additional observations from a re-analysis of the deposited data

How the results depend on the processing

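Of 37 alternatives, 26 left the value within its 95% interval, or the number of far peaks within 1.5 times. The number of far peaks, 309, was 599 at a limit of 5000 bases, 100 at 20000 bases, 855 against H3K27ac peaks wider than 200 bases and 793 against the first 91878 rows of the H3K27ac list. The median stretch without H3K27ac, 50.9 kb, was 34.8 kb at 5000 bases, 85.2 kb at 20000 bases and 82.1 kb with wider H3K27ac peaks, and the nearest H3K27ac peak then had a median of 246 bases, since narrower ones were left out. The share with a p63 neighbour was 8% with the peaks of the dense windows counted and 16.2% within 50 kb. At 20000 bases 0% were on X (0 of 100; a count of 0 allows up to 3%, and the Wilson upper limit is 3.70%). Width stayed between 166 and 171 bases over its 6 alternatives. Those for the p63 motif and for gene starts could not be computed without an mm9 genome and were left out. No paired analysis was possible because there was 1 library per group.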
